A study of Caenorhabditis elegans with 2 samples.

Results

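The pharynx structural and regulatory genes are 46 named genes of Caenorhabditis elegans, listed by name for their known roles, by a rule that uses no measured value although earlier results of these data were known when the list was made, out of 19985 protein-coding genes. By role they comprise 11 genes of pharyngeal muscle, 8 of the pharyngeal glands, 17 of the abu and pqn families tied to the pharyngeal cuticle, and 10 regulators of pharynx development. Sequencing of immunoprecipitated chromatin (ChIP-seq) was used to map where the forkhead factor PHA-4 sits in the genome. The animals were whole young adults, males and females pooled, of strain OP37, with the genotype unc-119(ed3) III; wgIs37. The transgene wgIs37 carries a fusion of pha-4 with eGFP, a green fluorescent protein, and the unc-119 mutation is shared by both samples. There was 1 group of 2 biological replicates, each from its own biosample, so no contrast between conditions exists and no test between groups was made. The labels name pha-4 as the antibody target, and a possible control experiment that was not analysed here.

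The pharynx is the muscular feeding pump of the worm, built from muscle, gland, epithelial, marginal and nerve cells and lined by a cuticle. PHA-4, a factor of the FoxA family, gives cells their pharyngeal identity in the embryo and is known to act directly on many genes expressed in the pharynx, with sites of different affinity used at different stages. In adults it is also expressed in the intestine and the somatic gonad. In whole adults the pharynx is a small share of the nuclei, and fewer bound cells cannot be told apart from less binding per cell.

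Each list of regions gives a signal value from the authors, whose scaling is not stated, so a region is described by its percentile, which is its rank by signal divided by the size of its own list, with values near 0 the strongest. The pooled relaxed list held 24890 regions with a median signal of 13.1, and 4065 of them passed a q value of 0.05. Each replicate list held 30000 regions. The replicates stood apart, since 13 regions of replicate 1 and 7548 of replicate 2 passed that q value, and 20 regions of replicate 1 lay on the mitochondrial genome. Results are therefore given in the pooled list and in each replicate. The optimal list, which held the 839 regions that passed the authors' reproducibility step, had no signal below 40.98. Read depth is unknown, and intervals below cover counting error over genes only.

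A promoter region is one whose summit lay from 1000 bp upstream to 200 bp downstream of the 5′ end of any annotated transcript of the gene. The bases within 60 bp of the summit are shown for 7 regions that carry the results below: the strongest promoter regions among muscle, gland, cuticle and regulatory genes, and the strongest regions inside myosin genes. They were read from the RefSeq genome of WBcel235, which has the coordinates of ce11. The windows on the plus strand are chrX:12467703-12467823 upstream of myo-2, chrX:12469566-12469686 across the start of a myo-2 intron, and chrV:8110929-8111049 in a myo-5 intron. Also on the plus strand are chrII:11694614-11694734 at kel-1 and chrX:2215232-2215352 at peb-1. On the minus strand are chrV:5194931-5195051 at abu-8 and chrX:637676-637796 at pha-2. Capitals mark any match, on either strand, to the 4 forkhead words TGTTTAC or TGTTTGC or TATTTGT or TATTTGC, to the repeat GAGAGA, or to CAAGTG, a word bound by NK-2 homeodomain factors such as CEH-22.
myo-2 promoter: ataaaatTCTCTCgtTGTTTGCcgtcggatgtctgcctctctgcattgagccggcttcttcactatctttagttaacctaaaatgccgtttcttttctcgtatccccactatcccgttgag
myo-2 intron: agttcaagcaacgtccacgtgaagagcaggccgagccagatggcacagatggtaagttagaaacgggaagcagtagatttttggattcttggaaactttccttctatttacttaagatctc
myo-5 intron: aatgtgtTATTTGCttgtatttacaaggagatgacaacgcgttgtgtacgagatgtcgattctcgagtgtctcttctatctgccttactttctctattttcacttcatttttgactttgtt
kel-1 promoter: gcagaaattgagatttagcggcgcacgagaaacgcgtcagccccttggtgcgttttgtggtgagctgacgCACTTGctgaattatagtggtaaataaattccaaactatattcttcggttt
abu-8 promoter: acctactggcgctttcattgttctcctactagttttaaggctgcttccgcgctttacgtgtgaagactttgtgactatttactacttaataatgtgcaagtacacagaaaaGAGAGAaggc
peb-1 promoter: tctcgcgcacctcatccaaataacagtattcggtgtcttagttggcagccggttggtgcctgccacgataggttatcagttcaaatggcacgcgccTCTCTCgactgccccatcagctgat
pha-2 promoter: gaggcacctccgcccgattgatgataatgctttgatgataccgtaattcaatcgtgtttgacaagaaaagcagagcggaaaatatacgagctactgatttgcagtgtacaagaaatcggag
The myo-2 promoter window holds 1 forkhead word, upstream of the summit, and the myo-5 intron window another. No match to these words lies within 60 bp of the summit in the myo-2 intron or at pha-2, which says only that these letters are not in those windows. The window named myo-2 intron begins in the exon before intron 6, which starts at chrX:12469617. It holds TATTTAC, a word of the wider PHA-4 consensus, 44 bp from the summit. At pha-2 the word TATTTGT lies 67 bp from the summit, outside the window shown.

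In the pooled list, 14 of the 46 genes had a promoter region, a share of 30.4% (95% exact Clopper-Pearson interval 17.7 to 45.8), beside 38.9% of all protein-coding genes. A region in the strongest 25% of the list lay in the promoter window of 4 of them, which is 8.70%, beside 17.4% of all genes. Neither share was above that of all genes. The replicates gave the same order: 16 genes, or 34.8%, had a promoter region in replicate 1 beside 39.9% of all genes, and 19 genes, or 41.3%, in replicate 2 beside 43.3%. Promoter regions of both replicates that overlapped each other were found at 7 genes, 15.2%, beside 17.5% of all genes. These were myo-1, ceh-22, exp-2, kel-1, pha-2, peb-1 and eya-1. Among genes with a promoter region, the median percentile of the strongest one was 34.5 for the pharynx genes and 29.5 for all genes in the pooled list, 52.1 and 39.4 in replicate 1, and 44.5 and 27.3 in replicate 2. In each list the median region of the pharynx genes ranked lower than that of all genes. The standard deviation of the pharynx median between the replicates was 5.37, wider than the gap in the pooled list, and the gaps were not tested.

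No pharynx gene of the list had an optimal peak in its promoter window, beside 3.52% of all genes. A count of 0 of 46 allows a share of up to 6.52% by the limit of 3 counts and of up to 7.71% by the exact interval. The wider zone, defined as the gene itself and 5 kb upstream, also held no optimal peak for any of the 46, beside 7.4% of all genes, which lies within that exact interval. On the ce10 build, an alternative chosen after seeing the data, the optimal list held 1 gene's zone region, in myo-2, beside 8.12% of all genes, under the narrower of 2 match rules tried, and 0 under the wider. Taking every pooled region, the zone held at least 1 region at 35 genes, 76.1%, beside 72.5% of all genes, and one in the strongest 25% at 13 genes, 28.3%, beside 34.1%. In replicate 1 the zone held a region at 39 genes beside 84.6% of all genes, and in replicate 2 at 40 genes, 87.0%, beside 76.3%. Apart from replicate 2, the shares of genes with any zone region were close to the background. The exact interval of the replicate 2 share, 73.7 to 95.1%, included the share of all genes. The median zone length was 7004.5 bp for the pharynx genes and 7026 bp for all genes.

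**Figure D1:**
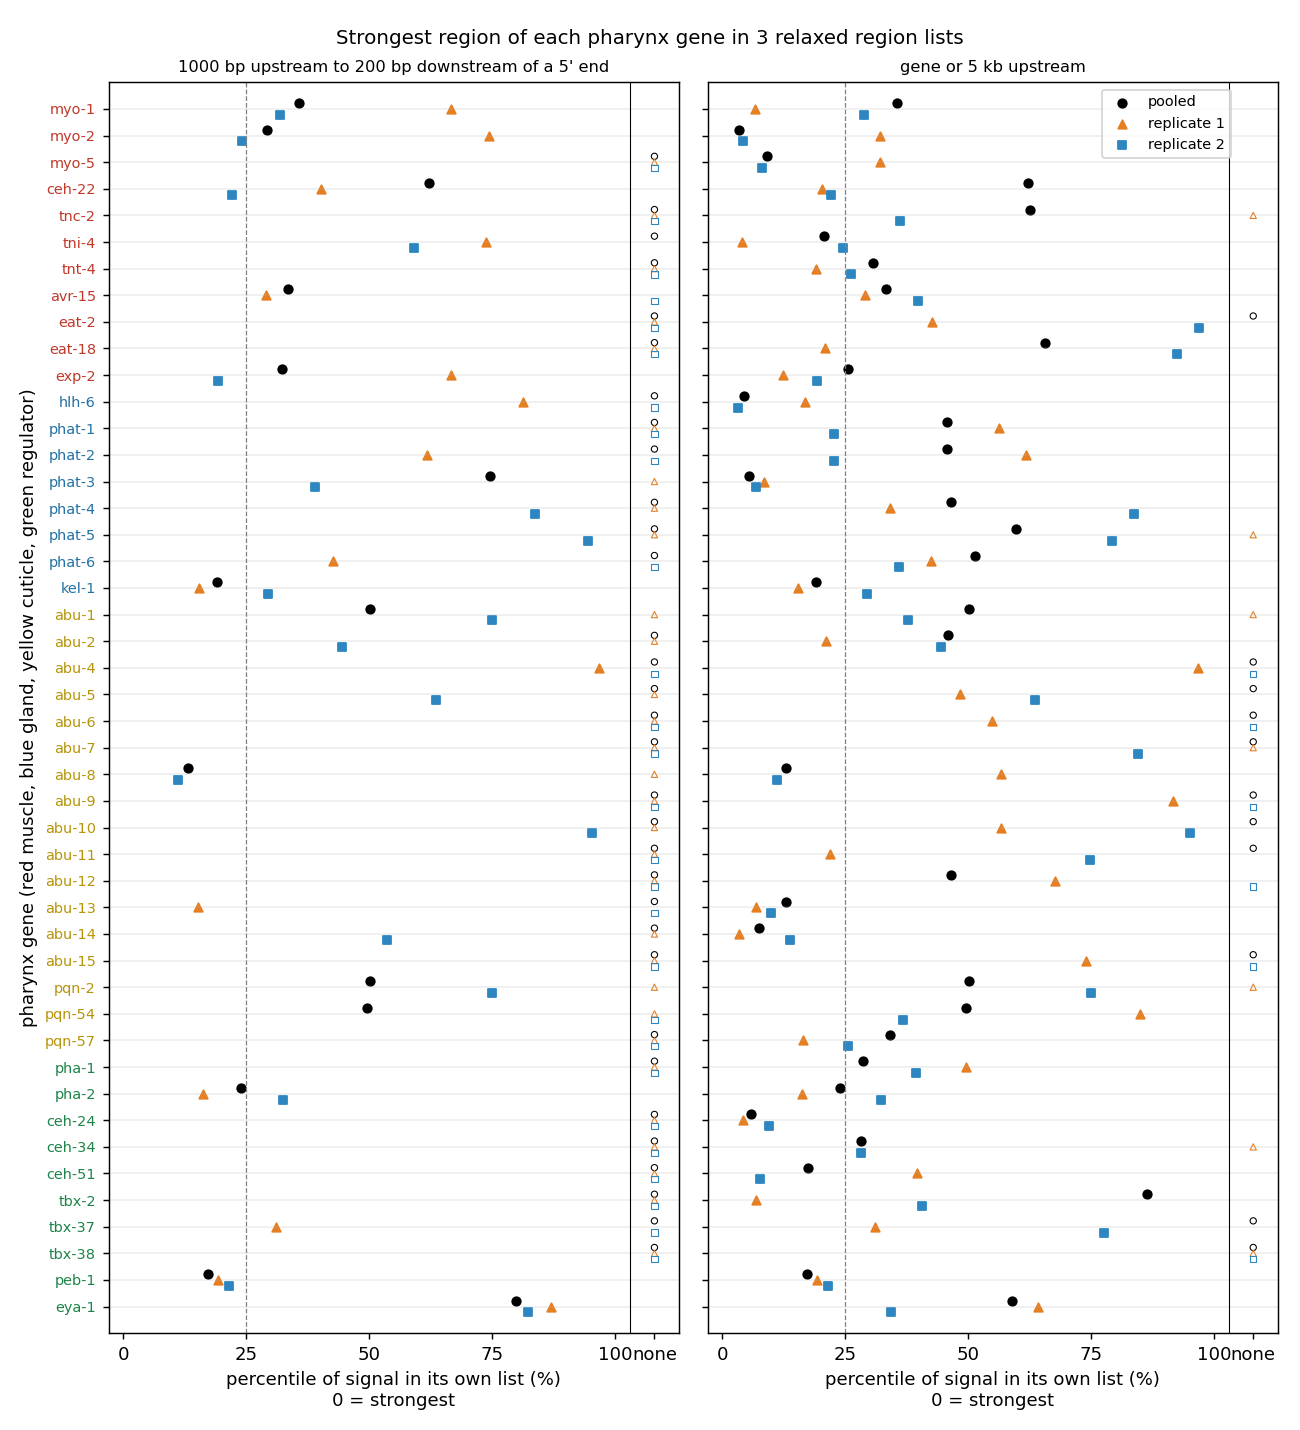
Percentile by signal of the strongest region of each of the 46 genes in the pooled list (circles), replicate 1 (triangles) and replicate 2 (squares), for the promoter window on the left and the gene plus 5 kb upstream on the right; 0 is the strongest, open symbols at the right edge mark genes with no region, and the dashed line is at 25. The left panel has 14 pooled circles, 4 of them left of the line, while the right panel has 35, of which 13 are left of it.

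Of the muscle genes, 5 of 11 had a pooled promoter region, beside 38.9% of all genes. In replicate 1 the count was 6, beside 39.9%, and in replicate 2 it was 5, beside 43.3%. None of the 5 pooled ones was in the strongest 25%, beside 17.4% of all genes. The count in the strongest 25% was 0 in replicate 1, beside 14.1%, and 3 in replicate 2, beside 20.5%. Those 3 were myo-2, ceh-22 and exp-2, so this count depended on the list read. The strongest pooled one lay upstream of myo-2, which encodes a pharyngeal myosin heavy chain and is a classical target of PHA-4. Its summit was 298 bp upstream of the 5′ end, at chrX:12467593-12467932 and inside the annotated non-coding gene T18D3.14, with a signal of 16.9 and percentile 29.2 in the pooled list. The overlapping region of replicate 2 had a signal of 13.97 and percentile 24.1, and no region of replicate 1 overlapped it. The region was of middle strength in the pooled list and rested on 1 replicate.

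The gene exp-2 encodes the potassium channel that ends the pharyngeal action potential. Its promoter region was 148 bp upstream of an internal 5′ end, within introns of exp-2 and of ttn-1, with a signal of 16.1 and percentile 32.3 in the pooled list, and 15.7 and 19.3 in replicate 2. No replicate 1 region overlapped that one. Overlap between the replicates at exp-2 came from another 5′ end, where replicate 1 had a signal of 4.67 at percentile 75.9 and replicate 2 had 8.72 at 55.8. At avr-15, a subunit of the glutamate-gated chloride channel through which a pharyngeal motor neuron relaxes the muscle, the region 387 bp upstream had a signal of 15.8 and percentile 33.4 in the pooled list, and 6.63 and 29.1 in replicate 1. It had no overlapping region in replicate 2, so exp-2 and avr-15 each leaned on a different replicate.

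The promoter region of myo-1, another pharyngeal myosin heavy chain gene, was 91 bp upstream of the 5′ end, with a signal of 15.4 at percentile 35.6 in the pooled list. It had a signal of 4.94 at percentile 66.6 in replicate 1 and 11.98 at 31.8 in replicate 2. It was present in all 3 lists and in the strongest 25% of none. The homeodomain gene ceh-22, whose product acts on myo-2 together with PHA-4, had a region in its 5′ untranslated exon, 257 bp downstream of the nearest 5′ end. That region ranked low, with a signal of 11.9 at percentile 62.2 in the pooled list, 5.97 at 40.2 in replicate 1 and 7.94 at 65.2 in replicate 2. Replicate 2 also had a region 960 bp upstream of ceh-22 with a signal of 14.6 at percentile 22.1, which the pooled promoter regions did not include.

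Inside the muscle genes, stronger regions were found. The strongest pooled region of any of the 46 genes lay in myo-2 at chrX:12469456-12469795, with its summit 1565 bp downstream of the 5′ end and 10 bp into intron 6. Its signal of 40.9 (q = 0.0018, percentile 3.40, rank 846) was just under the lowest optimal peak. In replicate 2 it had a signal of 32.6 at percentile 4.18, while no region of replicate 1 overlapped it. The summit of the region in myo-5, a further pharyngeal myosin heavy chain gene, was 473 bp into intron 4, at chrV:8110819-8111158. It had a signal of 28.8 at percentile 9.04 in the pooled list and 24.7 at 8.02 in replicate 2, and again no overlapping region in replicate 1. Both intronic myosin regions were thus strong in replicate 2 and missing from replicate 1.

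**Figure D2:**
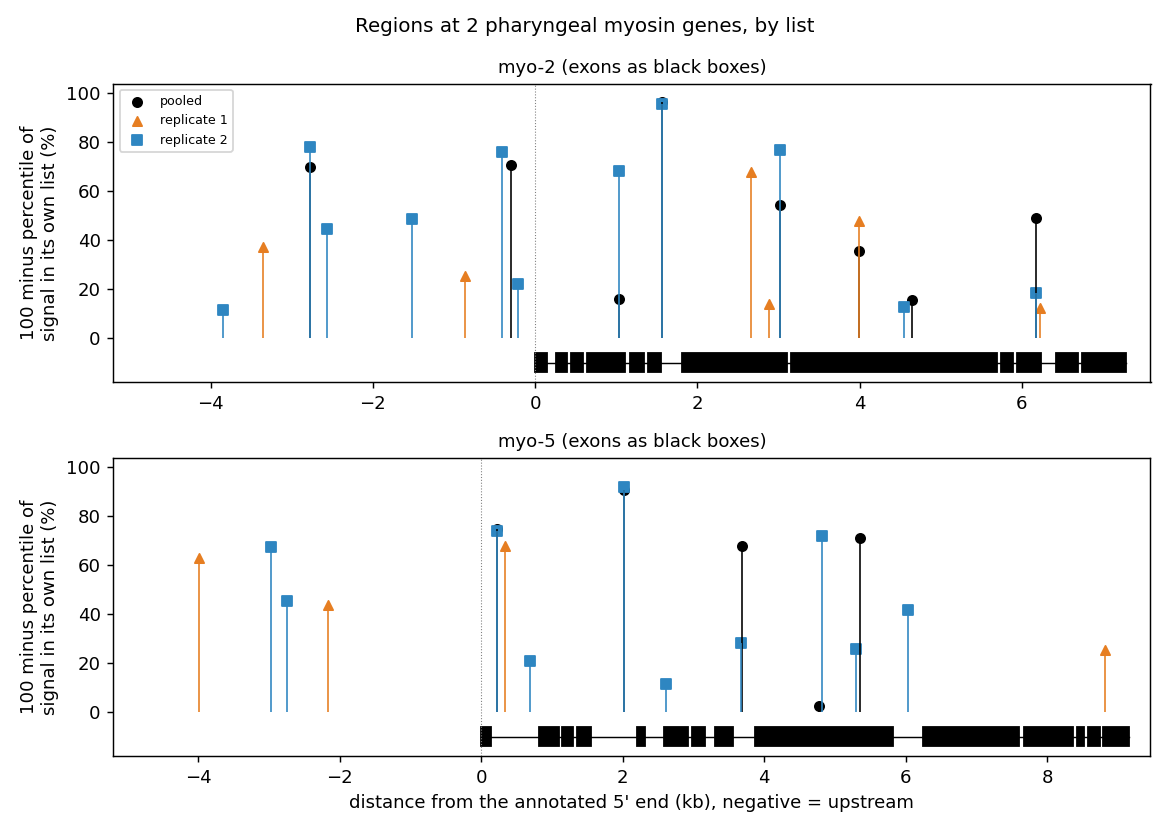
Summits of all regions in the zones of myo-2 and myo-5, plotted by distance from the annotated 5′ end in kb (negative is upstream) against 100 minus the percentile of signal in the region's own list, so that tall lines are strong; black boxes are exons. The tallest pooled and replicate 2 lines stand together at 1565 bp in myo-2 and 2019 bp in myo-5, with no replicate 1 line beside them.

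The pharyngeal troponin genes had no pooled promoter region. A region in a coding exon of tni-4, the troponin I gene, had a signal of 19.9 at percentile 20.7 in the pooled list, 5.27 at 57.2 in replicate 1 and 13.8 at 24.7 in replicate 2. A separate replicate 1 region in a tni-4 intron, 2133 bp downstream of the 5′ end, was stronger, with a signal of 10.4 at percentile 4.11. The strongest pooled regions in the zones of tnc-2 (troponin C) and tnt-4 (troponin T) stood at percentiles 62.5 and 30.7. The eat-2 gene, a subunit of the nicotinic receptor that sets pumping rate, had zone regions in both replicates but none in the pooled list. Its partner eat-18 had a pooled zone region at percentile 65.6, which lies in an intron shared with lev-10. In the muscle group as a whole the zone held a pooled region at 10 of 11 genes, beside 72.5% of all genes. The median zone length was 12288 bp for the muscle genes and 7026 bp for all genes. Of the 11, 3 had a pooled zone region in the strongest 25%, and these 3 were myo-2, myo-5 and tni-4. In replicate 1 the number in the strongest 25% was 6 of 11, beside 40.9% of all genes, and in replicate 2 it was 5 of 11, beside 38.7%; the share of all genes in the pooled list was 34.1%. The muscle count thus depended on the list read.

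In each replicate 4 of the 8 gland genes, or 50%, had a promoter region. The shares of all genes were 39.9% in replicate 1 and 43.3% in replicate 2. In the pooled list the order was reversed: 2 of the 8 had one, beside 38.9% of all genes. That of kel-1, a kelch repeat gene expressed in pharyngeal gland cells, was at chrII:11694504-11694843, 154 bp upstream of an internal 5′ end and within introns of kel-1 and the overlapping tars-1. It had a signal of 20.7 at percentile 18.99 in the pooled list, 7.86 at 15.3 in replicate 1 and 12.5 at 29.4 in replicate 2. It ranked above percentile 30 in every list, but the overlap with tars-1 means that the gene it belongs to cannot be told apart by position. The region of phat-3, one of the phat genes for secreted gland proteins, was 123 bp upstream of the 5′ end, with a signal of 10.8 at percentile 74.5 in the pooled list and 10.7 at 38.9 in replicate 2.

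All 8 gland genes had a pooled region in the zone, beside 72.5% of all genes. A region in the strongest 25% lay at 3 of them, hlh-6, phat-3 and kel-1, or 37.5%, beside 34.1% of all genes. The hlh-6 gene encodes the basic helix-loop-helix factor that drives gland gene expression. Its region had a signal of 37.7 at percentile 4.42 in the pooled list and 35.9 at 3.15 in replicate 2, with none overlapping in replicate 1. The summit was 4482 bp upstream of hlh-6 and 140 bp upstream of the 5′ end of dnj-20. The stronger phat-3 region was 1848 bp upstream, with a signal of 35.3 at percentile 5.35 in the pooled list, 7.48 at 18.6 in replicate 1 and 26.5 at 6.82 in replicate 2. Its summit lay 63 bp from the 5′ end of C49G7.10, so at both genes the strong region sat at another gene's 5′ end. The genes phat-1 and phat-2 shared 1 pooled region at percentile 45.8, and phat-4, phat-5 and phat-6 stood between 46.5 and 59.7.

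The abu and pqn genes encode proteins rich in glutamine and asparagine, many of them expressed in the pharynx while its cuticle is made. A pooled promoter region was found at 4 of the 17, beside 38.9% of all genes. A promoter region was found at 2 in replicate 1 and 7 in replicate 2, beside 39.9% and 43.3% of all genes. A region in the zone was found at 9 in the pooled list, 14 in replicate 1 and 12 in replicate 2. Of all genes, 72.5%, 84.6% and 76.3% had a zone region in these lists. The promoter region of abu-8 was the strongest of all 46 genes and the single one to pass a q value of 0.05, which promoter regions of 12.8% of all genes did. It lay 383 bp upstream of the 5′ end, at chrV:5194821-5195160 between genes, with a signal of 24.5 at percentile 13.04 in the pooled list and 21.2 at 11.1 in replicate 2. No region of replicate 1 overlapped it. The neighbouring genes abu-1 and pqn-2 shared 1 region, 579 bp and 37 bp upstream of their 5′ ends, with a signal of 13.1 at percentile 50.2 in the pooled list and 7.26 at 74.9 in replicate 2. That of pqn-54 had a signal of 13.2 at percentile 49.6 in the pooled list, no overlapping region in either replicate, and a summit nearer to fpn-1.2.

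Of the other strong cuticle regions, that of abu-14 had a signal of 31.2 at percentile 7.41 in the pooled list, 10.8 at 3.41 in replicate 1 and 18.8 at 13.8 in replicate 2. It lay 4263 bp upstream of abu-14 and in the 5′ untranslated exon of gst-13. The abu-13 region had a signal of 24.6 at percentile 12.9 in the pooled list and 22.5 at 9.83 in replicate 2, 2116 bp upstream and in an intron of let-711. Both thus sat within another gene. The abu genes belong to a family of similar copies, and the treatment of reads from similar copies is not given in the sources used here; the counts of this group are uncertain. No promoter region of a cuticle gene overlapped between the replicates, beside 17.5% of all genes. Replicate 1 had a promoter region at only 2 of the 17 cuticle genes, so few overlaps were possible.

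Of the 10 regulators, 3 had a pooled promoter region, beside 38.9% of all genes, and 2 of the 10 had one in the strongest 25%, beside 17.4%. In replicate 1 a promoter region was found at 4, beside 39.9%, and in replicate 2 at 3, beside 43.3%. The peb-1 gene, whose DNA-binding product recognises a site in the myo-2 enhancer, had a region at chrX:2215122-2215461, 338 bp upstream of an internal 5′ end and within a peb-1 intron. It had a signal of 21.7 at percentile 17.2 in the pooled list, 7.41 at 19.2 in replicate 1 and 14.9 at 21.4 in replicate 2. It was the one promoter region of the 46 genes in the strongest 25% of all 3 lists. The homeobox gene pha-2, needed for the shape of the pharyngeal isthmus, had a region 743 bp upstream, at chrX:637566-637905 in the annotated non-coding gene M6.10. Its signal was 18.6 at percentile 23.8 in the pooled list, 7.75 at 16.2 in replicate 1 and 11.9 at 32.4 in replicate 2. The region of eya-1, the Eyes absent co-factor, was weak in all lists, with a signal of 10.5 at percentile 79.8 in the pooled list, 4.37 at 87.0 in replicate 1 and 6.82 at 82.3 in replicate 2.

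Wider zones added 2 strong regulator regions. That of ceh-24, an NK-2 homeobox gene, was 4642 bp upstream, with a signal of 34.5 at percentile 5.79 in the pooled list, 10.4 at 4.25 in replicate 1 and 22.8 at 9.46 in replicate 2. It was among the strongest 10% of all 3 lists, although the 5′ end of swan-1 was nearer. The ceh-51 region, 3048 bp upstream of this mesodermal homeobox gene and in an intron of emb-4, had a signal of 21.6 at percentile 17.4 in the pooled list, 5.78 at 44.3 in replicate 1 and 25.1 at 7.72 in replicate 2. The T-box genes differed between lists. The strongest zone region of tbx-2 stood at percentile 86.5 in the pooled list, 6.81 in replicate 1 and 40.6 in replicate 2. The tbx-37 zone held no pooled region, and its strongest stood at 31.0 in replicate 1, in the promoter window, and at 77.6 in replicate 2, while tbx-38 was the single gene of the 46 with no zone region in any list. The regions of pha-1 and of the sine oculis homeobox gene ceh-34 stood at percentiles 28.6 and 28.3.

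**Figure D3:**
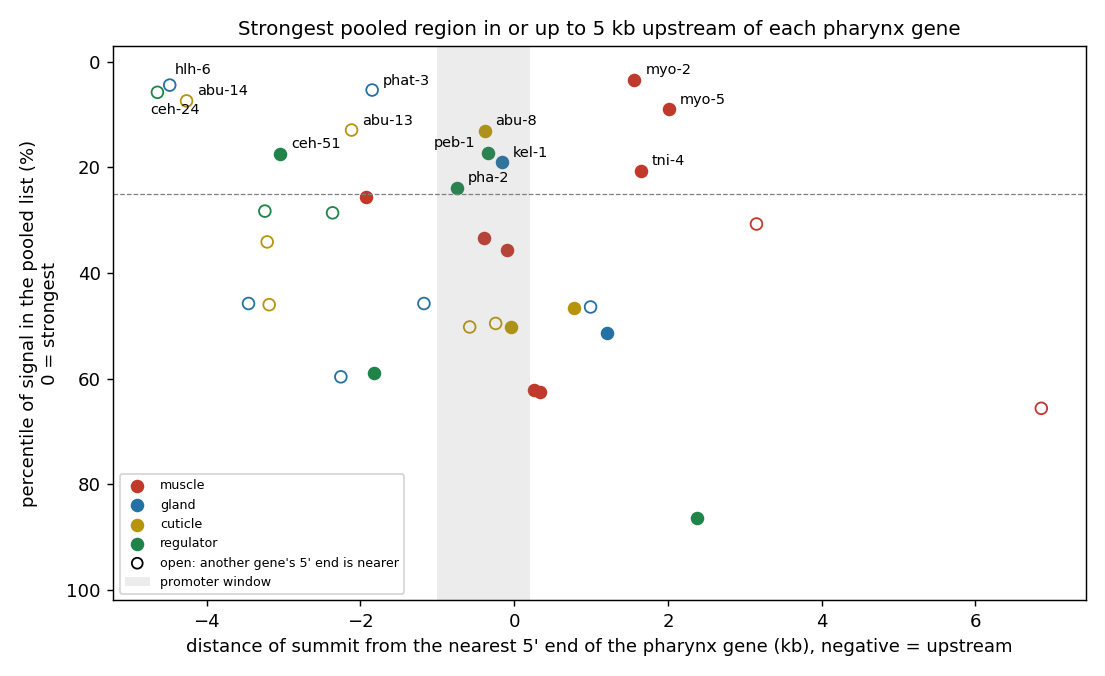
Percentile by signal in the pooled list of the strongest zone region of each of the 35 genes that had one, against the distance of its summit from the nearest 5′ end of that gene in kb, coloured by role; open symbols mark regions to which another gene's 5′ end is nearer, the shading is the promoter window and the dashed line is at percentile 25. Named points are the 13 genes in the strongest 25%, and 17 of the 35 symbols are open; the ceh-22 point counts as a promoter region through a further 5′ end.

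The strongest zone region lay in the promoter window at 10 of the 35 genes, inside the gene but outside that window at 10, and further upstream at 15. The 5′ end nearest to it was the gene's own at 18 and another gene's at 17. The strongest zone region passed a q value of 0.05 at 8 of the 46 genes, beside 25.8% of all genes. Of these 8, 1 had it in the promoter window, and at 5 of the 8 another gene's 5′ end was nearer. All 8 had an overlapping region in replicate 2 and 3 had one in replicate 1. The zones of the 35 genes held 88 distinct pooled regions. Of these, 51.1% overlapped a replicate 1 region and 77.3% a replicate 2 region, beside 49.8% and 79.7% of all pooled regions. The ranks of the 31 that had both correlated with a Spearman rho of 0.313, and those of all 8910 such regions with 0.219, as a description over regions of the same libraries.

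The forkhead words were looked for on either strand, up to 100 bp from each summit. At least 1 of the 4 words was present at 3 of the 13 strongest member promoter regions and at 9 of the 33 distinct strongest zone regions, or 27.3%. In all 24890 pooled regions the share was 19.4%, in the strongest 25% of them 25.4%, and in the optimal peaks 26.8%. Upstream of myo-2 the word TGTTTGC began 45 bp before the summit. Over all 88 member regions the share with at least 1 of the 4 words was 21.6%, and over the 15 member promoter regions 26.7%. Any of the 16 words of the PHA-4 consensus was present at 11 of those 15, or 73.3%. The share was 50.4% in all pooled regions, 58.4% in the strongest 25% of them and 59.4% in the optimal peaks. Within 50 bp of the summit it was 5 of the 15, or 33.3%, beside 30.1% of all pooled regions. Within 100 bp the share over the 88 member regions was 51.1%, and none of these differences was tested. The repeat GAGAGA was present at 19 of the 88, beside 16.4% of all pooled regions and 35.5% of optimal peaks, and CAAGTG at 10 of the 88, beside 9.59% of all. A match is a description of the letters and not a site.

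Other genes gave a scale for these values. Of 24 further pharynx genes from a separate list, 15, or 62.5%, had a pooled promoter region, beside 38.9% of all genes. An optimal peak lay there at 2 of the 24, beside 3.52% of all genes. These 2 were pha-4 itself, with a signal of 88.1, and phm-2, with 52.9, and skn-1 had an optimal peak of 55.6 inside the gene. Strain OP37 also carries pha-4 in the transgene wgIs37, and whether reads from it raised the pha-4 signal was not tested. Promoter regions in the strongest 25% were also found at skn-1, with a signal of 32.0, and at eat-6, the sodium pump subunit, with 36.5. Of 12 genes of body wall muscle sarcomeres, 6 had a pooled promoter region and 8 a zone region in the strongest 25%, and deb-1 (vinculin) had an optimal peak with a signal of 45.3. The 77 ribosomal protein genes stood at the other end, with a pooled promoter region at 72, or 93.5%, a median percentile of 2.69 and an optimal promoter peak at 39. The lists differ in gene length and expression, and the part of these in the differences was not tested.

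**Figure D4:**
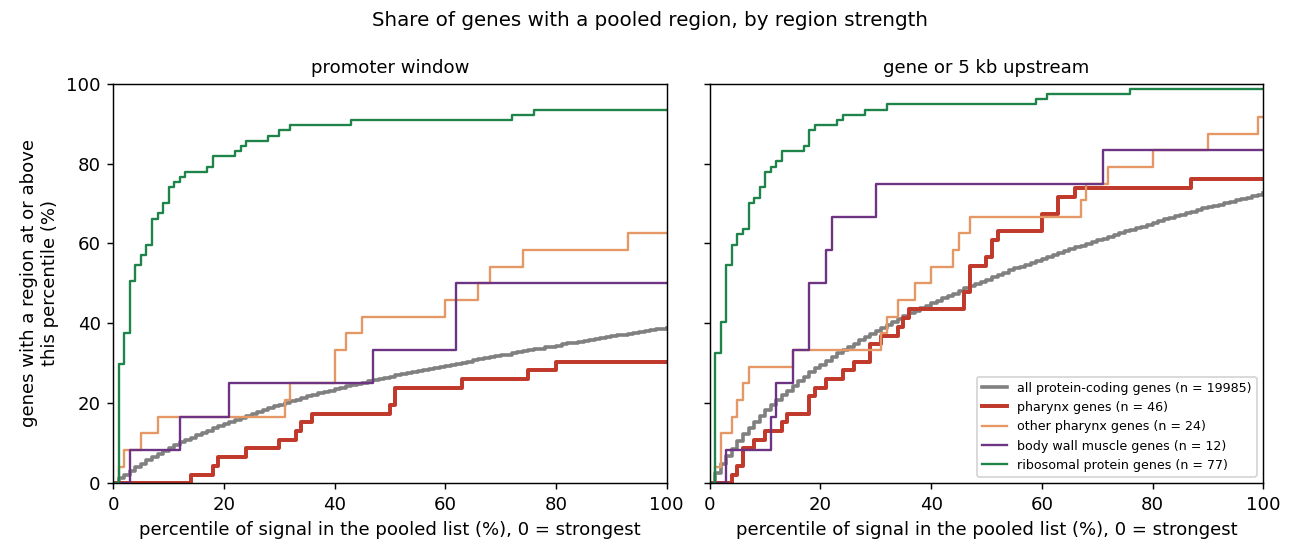
Percentage of genes with a pooled region at or above a given percentile by signal, in the promoter window (left) and in the gene plus 5 kb upstream (right), for the 46 pharynx genes and the comparison sets named in the key with their sizes. In the left panel the pharynx genes end at 30.4% and all protein-coding genes at 38.9%, while the ribosomal protein genes reach 93.5%; in the right panel the pharynx genes end at 76.1% and all genes at 72.5%.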

How the data were processed

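ChIP-seq of PHA-4::eGFP in whole young adult worms gave 2 biological replicates, grouped and numbered per the labels. The authors deposited region lists with a signal value, whose scaling is not stated, and −log10 of the q value for each region; the p value column was not filled in the deposited lists. Per the deposited notes, the relaxed lists were made for each replicate and for the pooled alignments as input to a reproducibility step, and the optimal list passed it. The aligner, caller, cut-off and depth were not given in the sources used here. Precision covers counting error over genes only.

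Summits were placed on ce11 coordinates, counted from 1, against Ensembl release 115 genes with Python 3.11.15, pandas 2.3.3, numpy 2.4.6, scipy 1.17.1 and matplotlib 3.10.9. Overlap meant at least 1 bp. The placement was tested on simulated data. Members and lists were chosen with earlier results of these data known. Values in full went to members with an optimal peak, those with overlapping promoter regions of both replicates, and the 3 strongest promoter and 2 strongest zone regions of each role; ranges served for the rest. Genes that are no members are named where their 5′ end is nearer to such a region, and from the other lists where they had an optimal peak or a top-ranked promoter region. Further names were chosen after their values were seen. No test between groups was possible. Alternatives were other windows, gene ends, list cut-offs, overlap rules and forkhead words, reading each replicate list in place of the pooled one, and the optimal list of the ce10 build.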

Additional observations from a re-analysis of the deposited data

How the results depend on the processing

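Of the alternatives tried, 17 moved a count by more than 1.5 times or a percentile by more than the spread between replicates, and 49 did not. These limits ignore the share of all genes, and in some of the 49 the order against it reversed. A narrower promoter window put overlapping replicate regions, at 6 genes, above it (11.5%). Counting only the nearest 5′ end did so for replicate 2 promoters, at 18 genes (37.2%). Zone shares fell below it with 2 kb upstream, at 27 pooled (59.1%) and 32 replicate 1 genes (71.0%). So did that of the stronger 50% of replicate 1, at 28 (62.7%). The rest of the 49 kept the order. Keeping regions with a q value of at most 0.05 left promoter regions at 1 gene in the pooled list (12.8% of all genes), 0 in replicate 1 (0.045%) and 5 in replicate 2 (20.5%), and pooled zone regions at 8 (25.8%). The stronger 50% of each list left 9, 8 and 10 genes (26.7%, 23.9% and 30.1% of all genes), 3 with overlapping replicate regions (9.54%), and 0 in the top 25% of what remained (10.6%). The strongest 10% of the pooled list held 0 (8.88%). Using the 5′ end of the longest span alone gave 2 top-quarter genes (15.9%) and 3 with overlapping replicate regions (15.4%), and asking for summits within 100 bp gave 4 (8.77%). A window of 2000 bp upstream put the median percentile of the strongest promoter region at 40.7. All 16 words of the PHA-4 consensus gave 18 strongest zone regions with a word, 54.5%, beside 50.4% of all pooled regions. The 4 words within 50 bp on each side gave 3, 9.09%, beside 10.5% of all pooled regions. Leaving out 1 replicate meant reading the list of the other alone, since no pooled list was rebuilt. Promoter counts were then 16 in replicate 1 (39.9% of all genes) and 19 in replicate 2 (43.3%). Top-quarter counts were 4 (14.1%) and 5 (20.5%), and zone counts 39 (84.6%) and 40 (76.3%). These readings are among the 49 and are no check on the pooled list itself. Shorter lists and narrower rules hold fewer regions by construction; other causes were not tested.

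The optimal list of the ce10 build was added after seeing the data, and its 950 peaks were matched to pooled ce11 regions by chromosome, signal and q value, without converting coordinates. A first match, with signals within 0.02, gave 768 pooled regions as single partners and left 179 peaks without exactly 1 partner. It gave 0 genes with an optimal peak in the zone. The tolerance was then narrowed to 0.001 after that outcome was seen, which matched 928, left 22, and gave 1 gene, myo-2 through its intron 6 region, beside 8.12% of all genes. That gene rests on the build and the match rule chosen.

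No paired analysis was possible because there is 1 group and the results come from no test. Depth is unknown, so a missing region in replicate 1 was not detectable there and is not shown to be absent.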

Other observations

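The nearest optimal peak lay a median of 31672 bp from the 46 genes, from 282 bp to 402459 bp, and 8 genes had one within 10 kb. Of those 8, phat-1 and phat-2 shared a peak, as did phat-4 and phat-5. These distances were not computed over all genes, so whether they are near or far cannot be said. The closest peak was 282 bp downstream of abu-8, with a signal of 42.2 and a summit 170 bp upstream of C03A7.13. Another lay 750 bp downstream of phat-4, with a signal of 63.6, 230 bp upstream of the nuclear receptor gene nhr-57. Both fall outside the zone because the zone extends upstream only.

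Promoter regions missing from the pooled list were present in 1 replicate at 12 genes. Replicate 1 held those of hlh-6, phat-2, phat-6, abu-4, abu-13 and tbx-37, of which abu-13 stood at percentile 15.1. Replicate 2 held those of phat-4, phat-5, abu-2, abu-5, abu-10 and abu-14, the strongest of them at abu-2, at percentile 44.5. The tni-4 promoter had regions in both replicates that did not overlap. In 19 genes no promoter region was found in any of the 3 lists, among them myo-5, tnc-2, tnt-4, pha-1 and ceh-34. The matching shares of all genes, with no promoter region in any list or with one in 1 replicate only, were not computed. Whether the counts of 12 and 19 genes are high or low therefore cannot be said.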
